A study of Mus musculus with 21 samples.

Results

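The names described here are 90 mouse repeat names that begin with RLTR, out of 1217 repeat names counted in the study and 103 that begin with RLTR. They were chosen by name alone. The 13 names that begin with RLTRETN, RLTR4_, RLTR6 or RLTR10 were left out. The 90 names carry 34 different numbers, of which RLTR13 has 15 names, RLTR9 and RLTR20 have 8 each, RLTR44 has 6, RLTR1 and RLTR19 have 5 each and RLTR45 has 2. A name that ends in -int stands for the internal, protein-coding part of an element, and the other names stand for its long terminal repeat (LTR). There were 7 internal and 83 LTR names, and 89 of the 90 held enough reads to test. The exception was RLTR43B, with 77 reads over all 21 libraries and at most 12 in any one.

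Endogenous retroviruses are remnants of retroviral infections of the germ line, and each copy carries LTRs at both ends that hold its promoter and enhancer. In the fetal testis the male germ line erases DNA methylation over its genome and later restores it, and retrotransposons are silenced again in that window by histone marks and by PIWI-interacting RNAs (piRNAs) that direct new DNA methylation to young copies. TEX15 is a nuclear protein needed for that piRNA-directed methylation. RLTR is a naming prefix for rodent LTRs of many families and ages, so a shared prefix does not make 2 names kin, while names that share a number are usually related. Some LTRs of the RLTR9 group are known as enhancers in mouse embryonic stem cells, and some of the RLTR13 group in trophoblast cells.

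RNA was sequenced from male germ cells sorted by flow cytometry on the green fluorescence of an Oct4-GFP reporter, which every group carried. The donors were embryos or pups of matings between Tex15+/- parents of mixed strain background, and the number of animals per library is not stated in the labels. At the embryonic ages E16.5 and E18.5 the groups were Tex15+/- (HT) and Tex15-/- (KO), and shortly after birth, at the age written D2.5 in the sample titles and given as day 2 in the design, they were Tex15+/+ (WT), HT and KO. Each of the 7 groups had 3 libraries, described as biological replicates. There was no WT group before birth, so the controls at E16.5 and E18.5 lacked 1 Tex15 allele.

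Each library held 6063632 to 11884109 counts on genes and 8559227 to 15961899 on repeat names, and the RLTR names took 2.24% to 3.21% of the repeat counts. Levels are given in CPM, the usual unit of counts relative to library size, taken here relative to the gene counts and scaled with edgeR's TMM factors of the genes. They are not scaled by element length, so levels are compared between libraries and not between names. Tex15 itself lay at 2.90 to 3.72 CPM in the KO libraries and 888 to 1049 CPM in the HT libraries at E16.5, at 2.91 to 3.25 and 741 to 804 CPM at E18.5, and at 15.9 to 23.6 and 1764 to 2082 CPM at D2.5, where WT libraries held 3541 to 4338 CPM. The 10 germ cell markers all had reads in every group, though Nanos3 barely did so at D2.5. There it lay at 0, 0.74 and 0 CPM in WT, 2.00, 0 and 1.89 CPM in HT and 0.18, 0.19 and 0 CPM in KO libraries.

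The comparison of KO with HT cells at E18.5 asks which repeats change in germ cells without TEX15 near the end of fetal life. Of the 89 RLTR names, 25 were higher in KO cells at an adjusted p under 0.05 and none was lower (edgeR's quasi-likelihood test, Benjamini-Hochberg adjustment over all repeat names). Over all 1125 names tested, 9.87% were called higher and 0.178% lower. All 89 estimates lay above 0, from 0.04 to 1.28 on the log2 scale, with a median of 0.33 against 0.18 over all names. In CPM, every KO library lay above every HT library in 46 of the 89 names, which held for 17.1% of all names, and in none did every KO library lie below (0.889% of all names). As shares of the repeat counts, the KO libraries were all higher in 24 RLTR names and all lower in 4. Over all 1125 names these counts were 122 and 181. Because these are bulk samples, fewer cells of a type and less RNA per cell cannot be told apart.

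The calls were spread unevenly over the numbers. Both RLTR45 names were called (median log2 fold change 1.21), as were 4 of 5 RLTR1 names (0.73), 10 of 15 RLTR13 names (0.56) and 6 of 8 RLTR9 names (0.55), and in addition RLTR5_Mm, RLTR46 and RLTR47_MM, each the sole name of its number. None was called among the 8 RLTR20 names (0.26), the 6 RLTR44 names (0.25), the 5 RLTR19 names (0.28), the 4 RLTR31 names (0.18), the 3 RLTR18 names (0.24) and the 3 RLTR11 names (0.17). When replicate numbers entered as a block, 43 RLTR names were called higher, against 18.2% of all names. The sample titles do not say whether libraries of the same number are pairs. That fit called all 5 RLTR1, all 8 RLTR9 and 13 of 15 RLTR13 names, both RLTR45 names, 3 of 8 RLTR20 and 1 of 6 RLTR44 names, and again none of the RLTR11, RLTR18, RLTR19 and RLTR31 names. No test of the difference between numbers was run. Names with a common number can share reads, since the labels do not say how reads that map to several copies were counted, so they are not independent of each other.

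**Figure D1:**
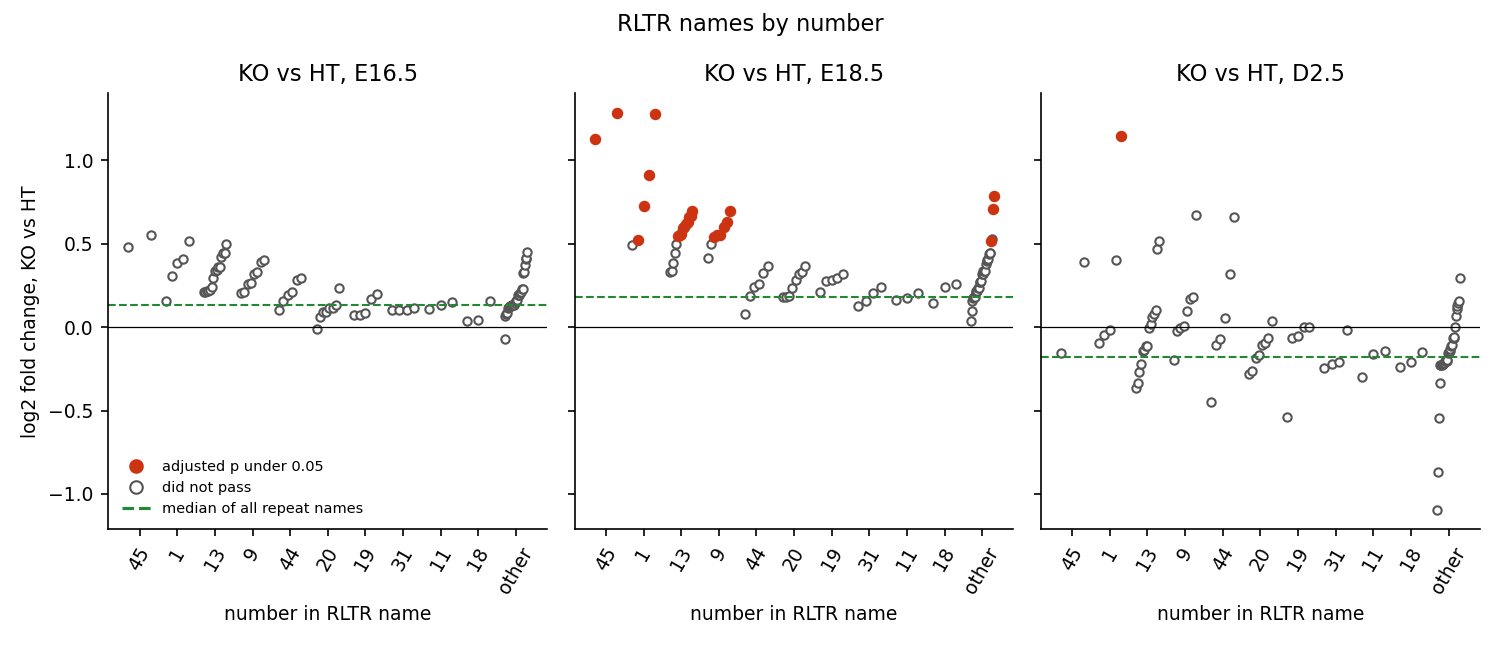
Log2 fold change of each of the 89 tested RLTR names in KO against HT cells, with 1 panel per age, placed by the number in the name. Red points passed an adjusted p of 0.05 and the dashed green line is the median of all repeat names, and at E18.5 the RLTR45, RLTR1, RLTR9 and RLTR13 points reach 0.70 to 1.28 at their highest while RLTR20 and RLTR44 stay between 0.08 and 0.36.

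RLTR45-int, the internal part of the RLTR45 elements, gave 586, 539.5 and 605 CPM in the HT libraries at E18.5 and 1383, 1258 and 1579 CPM in the KO libraries. Every KO library lay above 2 times the highest HT value. Its log2 fold change was 1.28 (SE 0.18, adjusted p = 7.92e-11), from 577 ± 33.6 CPM in HT to 1407 ± 162 CPM in KO (SD, n = 3). The LTR of the same elements, RLTR45, was higher as well. It lay at 253, 219 and 231 CPM in HT and at 544, 474 and 519.5 CPM in KO libraries, again with no overlap. The estimate was 1.13 on the log2 scale (SE 0.18, adjusted p = 8.35e-09).

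RLTR1B-int, the internal part of the RLTR1B elements, gave 694, 673 and 664 CPM in HT and 1712, 1545 and 1676 CPM in KO libraries at E18.5. The libraries of each genotype lay close together and far from those of the other. KO cells were higher by 1.28 on the log2 scale (SE 0.18, adjusted p = 1.2e-10), from 677 ± 15.2 to 1644 ± 87.8 CPM (SD, n = 3). RLTR1B, its LTR, went from 457, 392 and 478 CPM in HT to 870.0, 793 and 847 CPM in KO. The groups did not overlap, and the log2 fold change was 0.91 (SE 0.18, adjusted p = 7.41e-06). Among the other RLTR1 names, RLTR1D rose by 0.73 (SE 0.18, adjusted p = 0.000738) and RLTR1 by 0.53 (adjusted p = 0.0346), and RLTR1C stayed just outside the threshold at 0.49 (adjusted p = 0.0544, and 0.00135 with the replicate block). RLTR1D lay at 175, 142 and 167 CPM in HT and at 249.5, 262 and 293 CPM in KO libraries, all 3 KO values above all 3 HT values.

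**Figure D2:**
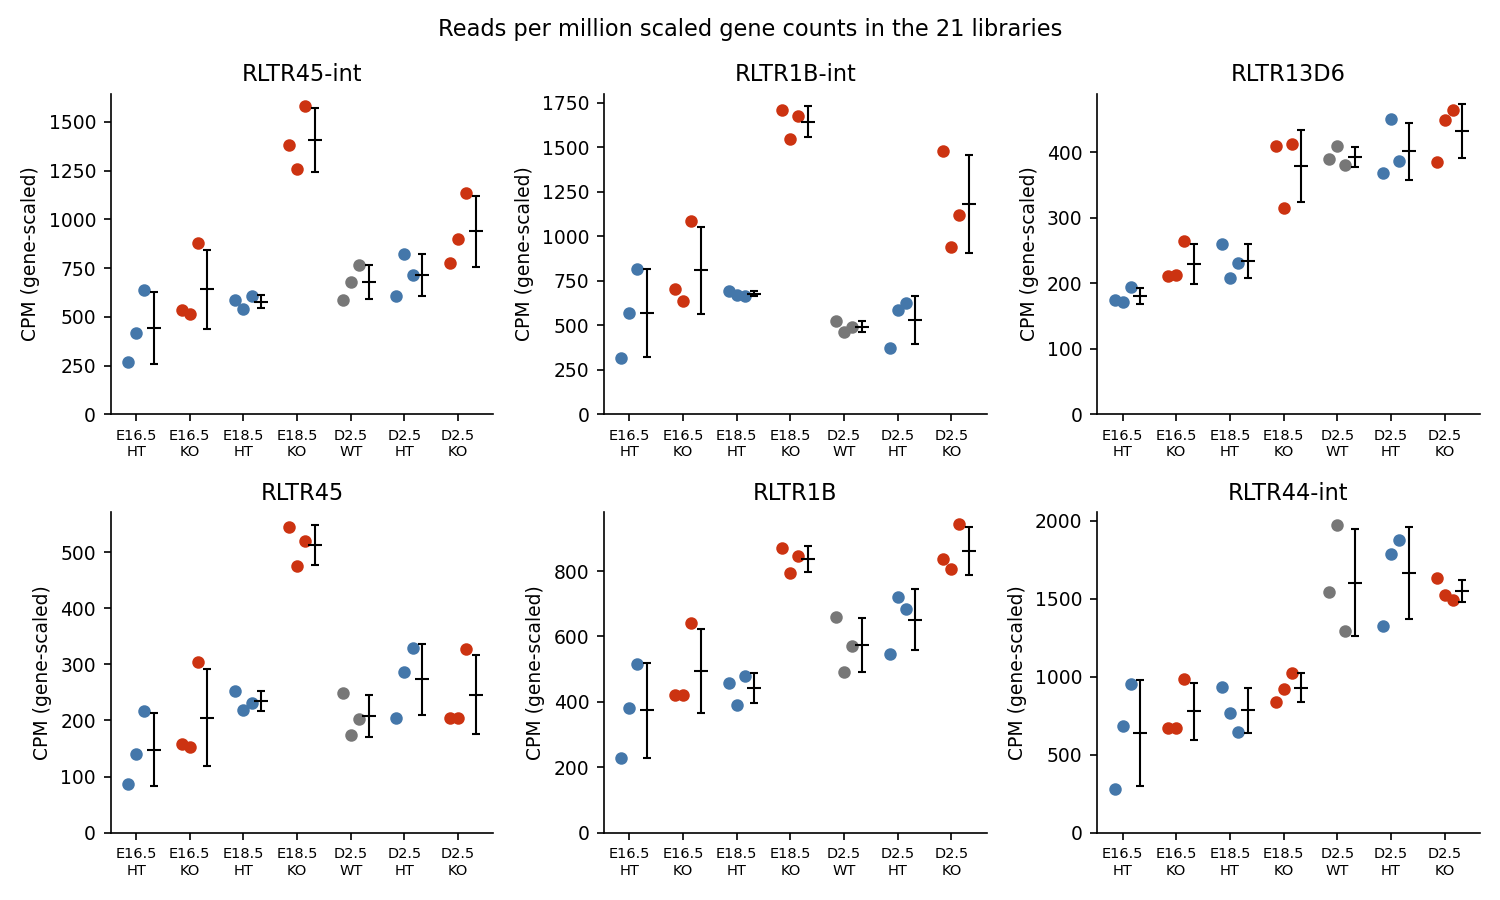
CPM of single RLTR names in each of the 21 libraries, by group, with points for libraries and a line at the group mean (CPM scaled by genes, linear axes from 0). RLTR45-int and RLTR1B-int separate KO from HT most clearly at E18.5, and RLTR1B-int alone of the 89 names also passed the test at D2.5.

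A pair of names that stand alone under their numbers also led. RLTR5_Mm gave 56.2, 49.3 and 53.1 CPM in HT and 93.5, 90.6 and 89.7 CPM in KO libraries at E18.5, with the 3 KO values close together. It was higher in KO by 0.79 on the log2 scale (SE 0.18, adjusted p = 0.00044). RLTR46 gave 69.7, 65.1 and 74.9 CPM in HT and 115, 106 and 123 CPM in KO libraries, without overlap. The log2 fold change was 0.71 (SE 0.18, adjusted p = 0.00181).

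Most RLTR13 names were higher as well, by less. Their 15 estimates ran from 0.33 to 0.70, and in 14 of them the KO libraries all lay above the HT libraries. RLTR13D6 was the highest, with 260, 208 and 231 CPM in HT and 409, 315 and 412 CPM in KO libraries, where KO replicate 2 was the lowest of its group but still above all HT libraries. The fold change was 0.70 on the log2 scale (adjusted p = 0.00146). RLTR13C2 lay at 239, 194 and 225 CPM in HT and at 355, 302 and 363 CPM in KO libraries, in the same order of replicates. Here the log2 fold change was 0.63 (SE 0.18, adjusted p = 0.00553). RLTR13B3 was just outside the threshold at 0.50 (adjusted p = 0.0623, and 0.00234 with the replicate block).

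The RLTR9 names had estimates from 0.41 to 0.70, and 7 of 8 showed no overlap between the groups. RLTR9F led them with 64.5, 53.3 and 51.4 CPM in HT and 89.03, 84.1 and 102 CPM in KO libraries, the KO values all higher. This gave a log2 fold change of 0.70 (SE 0.18, adjusted p = 0.00267). RLTR9E, with more reads, lay at 351, 284 and 296 CPM in HT and at 461, 413 and 483 CPM in KO libraries. There too the groups were apart, and the log2 fold change was 0.54 (adjusted p = 0.0239). RLTR9A2 did not pass (0.50, adjusted p = 0.0894), and did with the replicate block (adjusted p = 0.0056).

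By contrast, RLTR20 and RLTR44 names gave small differences. RLTR20B3 lay at 503.5, 345 and 374 CPM in HT and at 572.5, 452 and 553.5 CPM in KO libraries, where HT replicate 1 stood above KO replicate 2. Its log2 fold change was 0.36 (adjusted p = 0.225, and 0.0241 with the replicate block). RLTR44-int, the internal part of the RLTR44 elements, lay at 937, 769 and 646 CPM in HT and at 839, 923 and 1024 CPM in KO libraries, with the groups mixed. Its estimate was 0.24, and the LTR names RLTR44A to RLTR44E ran from 0.08 to 0.36. Nor did any of the most heavily read RLTR names pass. RLTR15 lay at 1531, 1072 and 1247 CPM in HT and at 1558, 1294 and 1525 CPM in KO libraries, with overlap. Log2 fold changes were 0.18 for RLTR15, 0.32 for RLTR17, 0.16 for RLTR11A2, 0.20 for RLTR11A, 0.18 for RLTR12B and 0.32 for RLTR19-int, and none of the 6 passed.

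Internal and LTR names gave like values where an element had both. Besides RLTR45 and RLTR1B, the LTR and internal estimates at E18.5 were 0.28 and 0.32 for RLTR19, 0.23 and 0.27 for RLTR14, 0.26 and 0.15 for RLTR18, and 0.10 and 0.16 for RLTR42. In all, 2 of 7 internal names and 23 of 82 LTR names were called higher. Named groups outside the 90 moved further in the same libraries: all 16 IAP names were called higher with a median log2 fold change of 1.13, as were 8 of 9 MMERVK10C and RLTR10 names (1.11) and all 7 names of the murine leukaemia virus type (1.35). RLTR45-int and RLTR1B-int, at 1.28 each, lay between these medians, and all RLTR13 and RLTR9 names lay below them. No test between these groups was run.

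The firmness of the E18.5 calls differed by number. Only 7 of the 25 passed in each of the 6 fits that leave out 1 library: RLTR45-int, RLTR1B-int, RLTR45, RLTR1B, RLTR5_Mm, RLTR1D and RLTR46. The count of called RLTR names was 49 without HT replicate 1, 14 without HT replicate 2, 24 without KO replicate 2, and 8 in each fit that left out HT replicate 3, or replicate 1 or 3 of KO. In the same fits 24.1%, 6.69%, 9.94% and 5.46% to 5.64% of all names were called higher. Of the RLTR13 names 14 passed without HT replicate 1 and none without KO replicate 1, and of the RLTR9 names 8 passed without HT replicate 1 and none without HT replicate 3 or KO replicate 3. RLTR9F itself was lost without HT replicate 3 or KO replicate 3, and RLTR13D6 without HT replicate 3 or KO replicate 1. The spread was estimated in common for all names at this age, so these SEs do not measure a name's own spread. With each name's own spread 8 names passed, against 4.53% of all names: RLTR45-int, RLTR1B-int, RLTR45, RLTR1B, RLTR5_Mm, RLTR46, RLTR9C and RLTR1.

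**Figure D3:**
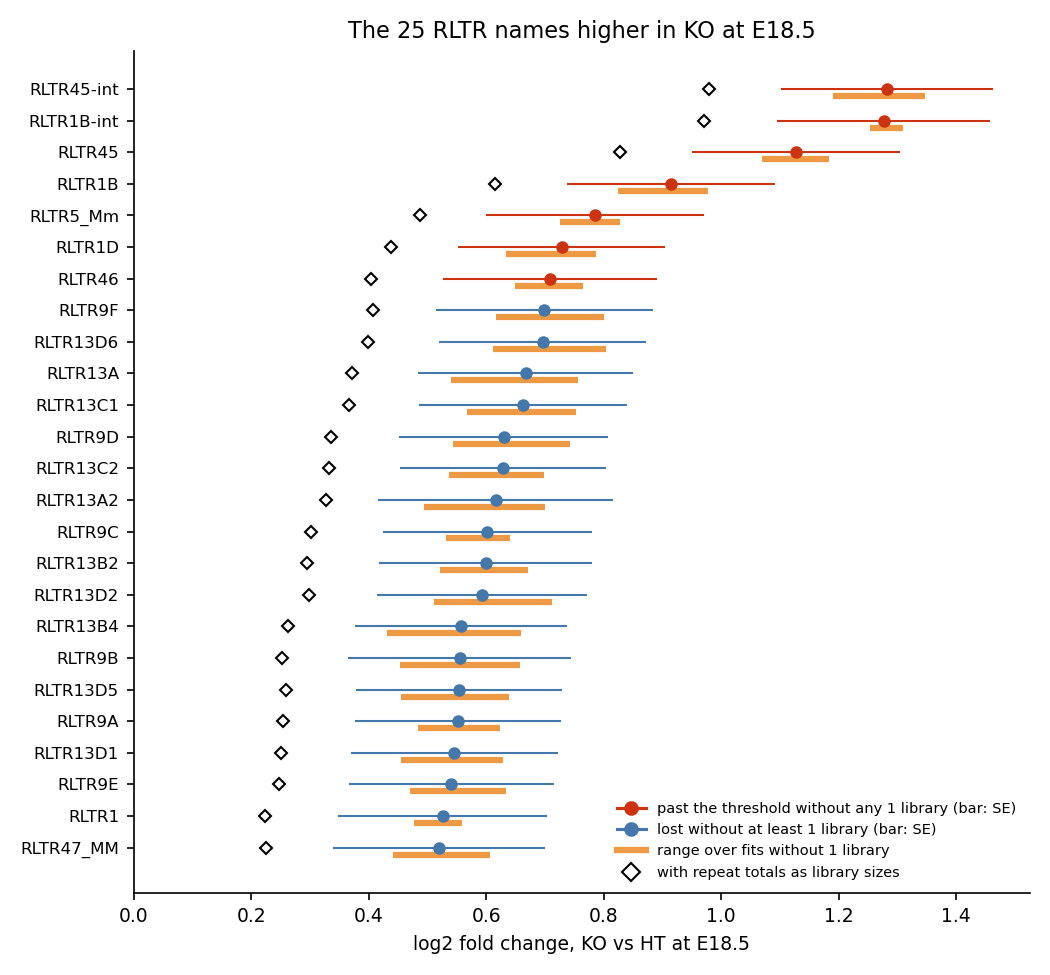
The 25 RLTR names called higher in KO at E18.5, with the log2 fold change and SE of each, the range over the 6 fits without 1 library (orange) and the value with repeat totals as library sizes (diamonds). The 7 red names passed in every such fit, and RLTR45-int, RLTR1B-int and RLTR45 stand apart at 1.13 to 1.28.

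Repeat names as a whole took 57.6%, 49.9% and 53.8% of the counts in HT and 60.2%, 56.0% and 58.2% in KO libraries at E18.5. The genotypes overlapped, and the difference in this share was not tested. A scale within the repeats was set beside the gene scale. With the total of all repeat counts as library size, the median of all names moved from 0.18 to -0.11 on the log2 scale and that of the RLTR names from 0.33 to 0.04. On that scale 13 of 89 RLTR names were higher and none lower, against 6.76% higher and 1.6% lower over all names. With TMM factors of the repeat names themselves, an alternative chosen after seeing the data, 28 RLTR names were higher, among them 24 of the 25, against 10.7% of all names. On repeat totals the medians remained above 0 for RLTR45 (0.90), RLTR1 (0.44), RLTR13 (0.26) and RLTR9 (0.25), with 2, 3, 4 and 2 names called, while those of RLTR20 (-0.03) and RLTR44 (-0.05) lay just below 0. With TMM of the repeat names they were 0.05 and 0.03, so their direction depends on the scale. As a percentage of repeat counts, the RLTR45 names summed to 0.0869 ± 0.00903 in HT and 0.166 ± 0.0154 in KO, and the RLTR1 names to 0.164 ± 0.0169 and 0.269 ± 0.0130 (SD, n = 3). The lowest KO library lay above the highest HT library for both. RLTR9 names summed to 0.105 ± 0.00595 and 0.127 ± 0.0111, and RLTR13 names to 0.207 ± 0.0118 and 0.248 ± 0.0192, also without overlap. RLTR20 names held 0.182 ± 0.00795 and 0.182 ± 0.00921, and RLTR44 names 0.150 ± 0.0143 and 0.145 ± 0.0176, with the genotypes mixed in both.

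**Figure D4:**
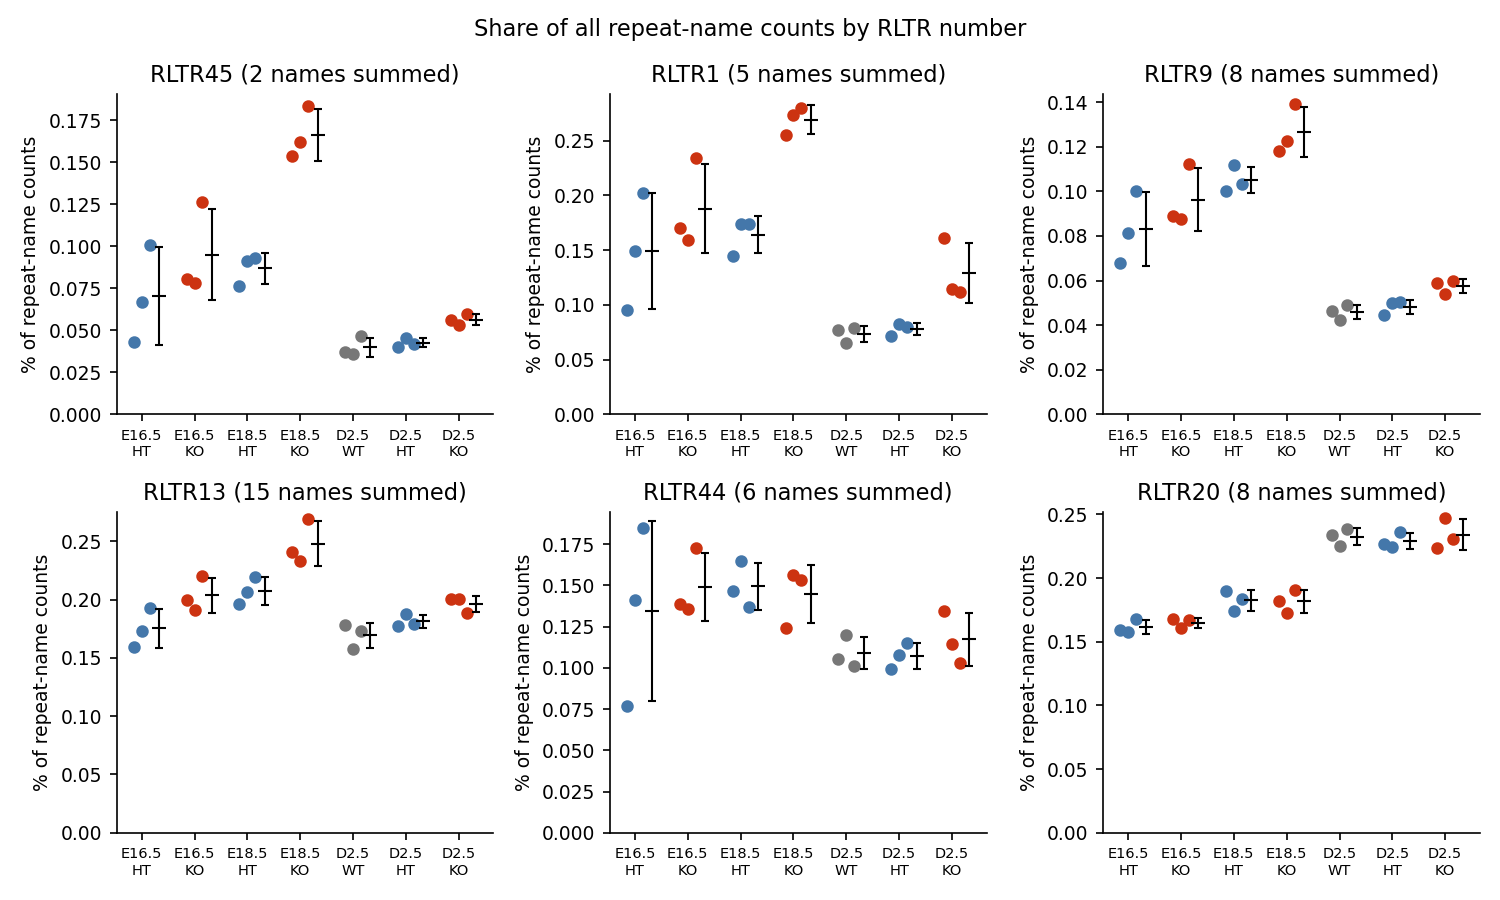
Summed counts of the names of 6 RLTR numbers as a percentage of all repeat-name counts in each library, by group (points are libraries, lines are group means, axes from 0). KO lies above HT at E18.5 for RLTR45, RLTR1, RLTR9 and RLTR13, and the genotypes overlap for RLTR20 and RLTR44.

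Markers of other cell types were read in the same libraries. The summed level of 8 macrophage and blood markers was 27.5 to 30.7 CPM in HT and 64.4 to 80.0 CPM in KO libraries at E18.5. Mrc1 made up most of the KO sum, at 16.8, 15.2 and 11.2 CPM in HT and 48.7, 48.1 and 56.2 CPM in KO libraries. Of the 5 that could be tested, Mrc1 and Adgre1 were higher in KO and the others did not pass. Cd68 overlapped, at 5.54, 7.61 and 7.30 CPM in HT and 3.12, 8.30 and 4.69 CPM in KO libraries. Hbb-b1 had no reads in either group. Summed germ cell markers were at 3264 to 3715 CPM in HT and 2965 to 3647 CPM in KO, with Pou5f1 lower among the 10. Sertoli markers (35.5 to 43.1 against 32.9 to 56.3 CPM), stromal markers (156 to 210 against 177 to 208 CPM), Leydig markers (31.7 to 35.0 against 34.3 to 51.9 CPM) and endothelial markers (111 to 126 against 109 to 166 CPM, with Tek higher) overlapped. The part of these cells in the RLTR differences was not tested.

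At E16.5 the same comparison gave no call in the main fit. With replicate numbers as a block 4 RLTR names were called, with the share of all names not given here. Unblocked, none of the 89 RLTR names passed with edgeR, DESeq2 or limma-voom. None of the 1090 names tested passed in the main edgeR fit (0%). At an unadjusted p under 0.05 there were 7 RLTR names against 6.15% of all names. The median of the RLTR estimates was 0.19 against 0.14 over all names, 87 of 89 lay above 0, and the range was -0.07 to 0.55. By number the medians were 0.52 for RLTR45, 0.38 for RLTR1, 0.34 for RLTR13, 0.29 for RLTR9, 0.20 for RLTR44 and 0.10 for RLTR20. KO libraries all lay above HT libraries in 13 RLTR names, 7 of them RLTR13 names, against 12.9% of all names, and below them in none (1.19%).

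The E16.5 libraries of each genotype were far apart for the names that led at E18.5. RLTR45-int lay at 268, 416 and 635 CPM in HT and at 535, 513 and 876 CPM in KO libraries, so that replicate 1 was lowest in HT and replicate 3 highest in both genotypes. The estimate was 0.55 on the log2 scale (SE 0.34). RLTR1B-int had the same order, with 319, 571 and 815 CPM in HT and 705, 635 and 1087 CPM in KO libraries, where the estimate was 0.52 (SE 0.35). The RLTR45 median was 0.26 without HT replicate 1, 0.16 without KO replicate 3 and 0.91 without HT replicate 3, and the RLTR1 median was 0.16, 0.14 and 0.64 in the same fits. The RLTR9 median was 0.06 without KO replicate 3 and 0.51 without HT replicate 3, and the RLTR44 median was -0.03 without HT replicate 1.

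The smallest unadjusted p-values at E16.5 belonged mostly to RLTR13 names, whose replicates lay closer together. RLTR13D6 lay at 174, 171 and 194 CPM in HT and at 210.2, 212 and 264 CPM in KO libraries, without overlap. KO was higher by 0.36 on the log2 scale, which did not pass (SE 0.13, adjusted p = 0.584 in edgeR). RLTR13A (0.42, SE 0.17), RLTR47_MM (0.37, SE 0.14), RLTR13D2 (0.34, SE 0.14) and RLTR13D1 (0.24, SE 0.09) had the same adjusted p. RLTR13D6 and RLTR13D2 each passed in 1 of 17 alternative fits, and RLTR13A, RLTR47_MM and RLTR13D1 in none. The RLTR13 median was 0.20 without KO replicate 3 and 0.42 without HT replicate 3.

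At D2.5 the KO libraries were compared with HT and with WT, so both comparisons use the same KO libraries. In each, 1 of the 89 RLTR names was called higher and none lower, and it was RLTR1B-int in both. Over all 1110 names, 1.17% were called higher and 0.0901% lower against HT, and 1.44% and 0% against WT. RLTR1B-int lay at 524, 464 and 491 CPM in WT, at 375, 586 and 627 CPM in HT and at 1480, 939 and 1123 CPM in KO libraries. Every KO library stood above all 6 controls, and KO replicate 1 was the highest. Against HT the log2 fold change was 1.15 (SE 0.22, adjusted p = 4.06e-05 in edgeR), and against WT 1.26 (SE 0.22, adjusted p = 2.36e-06). It passed in each of the 9 fits that leave out 1 library. With its own spread it did not pass (adjusted p = 0.376 against HT and 0.235 against WT), where 0.541% of all names were higher in each comparison.

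Other names that led at E18.5 were mixed at D2.5. RLTR1B lay at 658, 491 and 571 CPM in WT, at 545, 722 and 685 CPM in HT and at 836, 805 and 945 CPM in KO libraries. Its KO values were all above the controls, but the log2 fold change of 0.40 against HT (SE 0.22, adjusted p = 0.790) and 0.59 against WT (SE 0.22, adjusted p = 0.259) did not pass. RLTR45-int lay at 588, 681 and 764 CPM in WT, at 605, 820.0 and 713 CPM in HT and at 778, 901 and 1135 CPM in KO libraries, above all WT libraries but below HT replicate 2 in KO replicate 1. The estimates were 0.39 against HT and 0.47 against WT (adjusted p = 0.790 and 0.604). RLTR45 gave 248, 174 and 202 CPM in WT, 204, 287 and 329 CPM in HT and 205.3, 205.0 and 327 CPM in KO libraries, with no order of the genotypes. Its estimates were -0.16 against HT and 0.24 against WT.

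Among all 89 names at D2.5 the median was -0.11 against HT and -0.01 against WT, beside -0.18 and -0.11 over all names, and 27 lay above 0 against HT. Against HT, KO libraries were all higher in 4 RLTR names and all lower in 6 (3.06% and 5.95% of all names), and against WT in 9 and 2 (4.86% and 5.41%). The names with the lowest p besides RLTR1B-int and RLTR1B were RLTR44B (0.66), RLTR30 (-0.54) and RLTR43A (-0.87) against HT, and RLTR45-int, RLTR9B (0.65) and RLTR44B (0.58) against WT, with adjusted p-values from 0.412 to 0.785. With repeat totals as library sizes 4 names passed in each comparison (3.24% and 3.78% of all names were higher, and 0% and 0.27% lower). RLTR1B-int, RLTR1B and RLTR45-int were among them in both, joined by RLTR44B against HT and by RLTR13D5 against WT. As a percentage of repeat counts the RLTR1 names held 0.0654 to 0.0789 in WT, 0.0714 to 0.0821 in HT and 0.112 to 0.161 in KO libraries, and the RLTR45 names 0.0361 to 0.0464, 0.0402 to 0.0455 and 0.0534 to 0.0600. KO libraries lay above both controls for these numbers, and also for RLTR9 (0.0424 to 0.0490, 0.0446 to 0.0502 and 0.0540 to 0.0599). The same held for RLTR13, RLTR46 and RLTR25, of which RLTR25 had no call at E18.5. For single names, all KO shares lay above all HT shares in 13 of 89 RLTR names and in 95 of all 1110 names. Against WT the counts were 16 and 118. Stromal markers summed to 188 to 305 CPM in HT and 294 to 780 CPM in KO libraries at D2.5, and Sertoli markers to 41.0 to 60.05 and 38.7 to 182 CPM, with none past the test. Their part in these values was not tested.

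HT and WT cells at D2.5 were compared as well, which bears on the loss of 1 allele. None of 89 RLTR names and none of 1110 names passed (0%) with edgeR, DESeq2 or limma-voom, and at an unadjusted p under 0.05 in edgeR there were 2 RLTR names against 1.44% of all names. The median was 0.07 against 0.06 over all names.

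Whether the KO difference itself changed with age was tested in 1 fit of the 18 HT and KO libraries. From E16.5 to E18.5 no RLTR name passed with edgeR (0.175% of 1144 names did), none passed in any alternative, and 2 RLTR names had an unadjusted p under 0.05 (2.45% of all names). The estimated gain was 0.77 for RLTR1B-int (SE 0.34) and 0.74 for RLTR45-int (SE 0.31) on the log2 scale, each at an adjusted p of 0.998. A change of the KO difference between E16.5 and E18.5 was thus not shown for any RLTR name. From E18.5 to D2.5 only RLTR13C2 passed in the main fit, 1 of 89 against 1.75% of all names, with a change of -0.85 (SE 0.23, adjusted p = 0.0447). With replicate numbers as a block 44 RLTR names passed. The share of all names is not given here, so these 44 cannot be told apart from a shift of all repeat names. At D2.5 RLTR13C2 lay at 462, 520.3 and 455 CPM in HT and at 351, 441 and 442 CPM in KO libraries, so the KO libraries were below the HT libraries there and above them at E18.5. The WT libraries at D2.5 gave 440, 422 and 405 CPM, which overlapped the KO libraries. The call was lost in 10 of 18 fits that left out 1 library, namely replicates 2 and 3 of HT and 1 and 2 of KO at D2.5, replicates 2 and 3 of HT and 1 and 3 of KO at E18.5, and replicate 2 of HT and 1 of KO at E16.5 (adjusted p from 0.0518 to 0.131), and on repeat totals (-0.41, adjusted p = 0.233). For RLTR45 the estimate was -1.28 (SE 0.36, adjusted p = 0.055), for RLTR45-int -0.89 (SE 0.31, adjusted p = 0.163) and for RLTR1B-int -0.12 (SE 0.33, adjusted p = 0.80), and none of these 3 passed in the main fit. The median change was -0.44 over RLTR names and -0.36 over all names, and 0.00 and 0.07 with repeat totals.

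The KO differences at the 3 ages were measured in separate libraries. Across the 89 names the log2 fold changes at E16.5 and E18.5 had a Pearson correlation of 0.80 (Spearman 0.79), those at E18.5 and D2.5 0.46 (0.48), and those at E16.5 and D2.5 0.33 (0.36). Names are not independent replicates and all names of an age share their libraries and gene scaling, so these values only describe the names. Of the 25 names called at E18.5, 25 had an estimate above 0 at E16.5 and 13 at D2.5. Of all 89 RLTR names 87 and 27 did, and of all repeat names 903 of 1090 and 277 of 1110.

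Levels also differed between ages within HT cells. Between E16.5 and E18.5, 9 RLTR names rose and none fell (6.82% of all names were called, 6.64% higher and 0.175% lower), with a median of 0.38 against 0.34 over all names. RLTR26 led them, from 168, 228 and 283 CPM at E16.5 to 461, 359 and 372 CPM at E18.5, with all later libraries above the earlier ones. It rose by 0.81 on the log2 scale (SE 0.20, adjusted p = 0.0222). RLTR13B3 (0.79), RLTR27 (0.73), RLTR41 (0.73) and RLTR9A (0.62) followed. The count was 0 without HT replicate 1 or 2 of E16.5, without HT replicate 1 or 3 of E18.5 or without any 1 KO library of E18.5, which enters this contrast only through the shared spread and scaling. It was 15 without HT replicate 3 of E16.5 and 1 to 4 without any other 1 of the 18 libraries, so the count of 9 did not hold in any of these fits. Shares of all names in these fits are not given here, so these counts cannot be told apart from shifts of all repeat names.

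Between E18.5 and D2.5, 67 RLTR names rose and 2 fell in HT cells, where 79.1% of all names rose and 3.06% fell on this gene scale. RLTR12A rose most, from 257, 183 and 212 CPM at E18.5 to 796.5, 962 and 966 CPM at D2.5. The rise was 2.07 on the log2 scale (SE 0.16), and RLTR31B_Mm (2.02), RLTR22_Mus (2.00), RLTR15 (1.93) and RLTR19B (1.91) came next. RLTR27 went the other way, from 158, 168 and 177 CPM to 78.4, 83.4 and 78.9 CPM, with no overlap. It fell by 1.06 (SE 0.22, adjusted p = 7.26e-05), and RLTR9F fell by 0.79 (SE 0.26, adjusted p = 0.00614), a call lost without HT replicate 3 of D2.5 or HT replicate 1 of E18.5. With repeat totals as library sizes the split was 27 higher and 32 lower, against 338 (29.5%) and 256 (22.4%) of all 1144 names, with medians of -0.13 and 0.07.

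The numbers differed in this age comparison too, beside a rise in 79.1% of all 1144 names (median 1.36). No test between numbers was run. All 8 RLTR20 names rose (median 1.74), as did all 5 RLTR19 (1.70), all 4 RLTR31 (1.77) and all 3 RLTR11 names (1.78) and 14 of 15 RLTR13 names (1.11). Among the RLTR44 names 3 of 6 rose (0.41), among the RLTR1 names 2 of 5 (0.36), among the RLTR45 names none of 2 (0.27), and among the RLTR9 names 2 rose and 1 fell of 8 (0.04). On repeat totals the medians were above 0 for RLTR20 (0.44), RLTR19 (0.40), RLTR31 (0.48) and RLTR11 (0.48), and below 0 for RLTR13 (-0.21), RLTR44 (-0.92), RLTR1 (-0.96), RLTR45 (-1.05) and RLTR9 (-1.26). The direction of the last 5 numbers thus depends on the scale.

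The age pattern was then set beside the E18.5 KO difference, a comparison chosen after the values were seen. The age measure was the log2 ratio of mean HT levels at D2.5 and E16.5, which uses no E18.5 library. The 25 names called at E18.5 had a median ratio of 0.90 (-0.28 to 1.73) and 11 of them were above 1. The 64 names not called had a median of 1.83 (-0.33 to 2.35) and 55 were above 1. Across the 89 names the ratio and the E18.5 log2 fold change had a Pearson correlation of -0.59 and a Spearman correlation of -0.63.

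**Figure D5:**
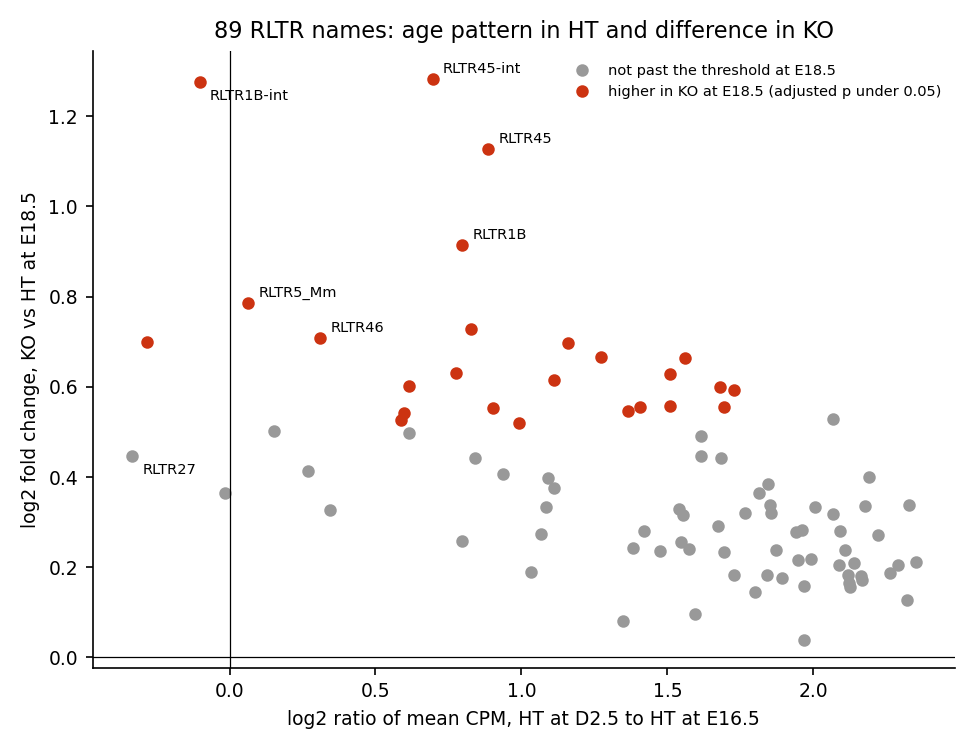
Each of the 89 RLTR names by the log2 ratio of its mean CPM in HT cells at D2.5 to E16.5 (x axis) and its log2 fold change in KO against HT cells at E18.5 (y axis), with called names marked. The 25 called names have a median ratio of 0.90 and the other 64 of 1.83.

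Genes of the machinery that silences endogenous retroviruses were read as a separate list. Of 28 tested genes for chromatin repression, 1 was higher in KO cells at E18.5 and none lower, where 2.07% of 18199 genes were higher and 0.0659% lower. It was Cbx5, which encodes the heterochromatin protein HP1 alpha, at 252, 285 and 296 CPM in HT and 488, 386 and 389 CPM in KO libraries. All KO values were higher, and the log2 fold change was 0.60 (SE 0.15, adjusted p = 0.049). Of 18 tested genes of piRNA-directed silencing, 1 was lower and none higher at E18.5. It was Gtsf1, which encodes a small zinc finger partner of PIWI proteins, at 89.1, 107 and 99.6 CPM in HT and 43.3, 49.8 and 40.5 CPM in KO libraries. Its KO values were all lower than the HT values, with a log2 fold change of -1.15 (SE 0.15, adjusted p = 0.000554). Other members did not pass at E18.5: Tdrd1, a tudor protein of the piRNA pathway, had 0.15, Mov10l1, a helicase of piRNA production, 0.24, Mael, a piRNA pathway factor, -0.23, and Dnmt3a, a DNA methyltransferase, 0.10. At E16.5 no gene of either list passed with edgeR, and none had an unadjusted p under 0.05 (0.00618% of 16185 genes were called). At D2.5 none passed against HT (0.153% of 14367 genes were called), with 2 of each list at an unadjusted p under 0.05, which 7.21% of all genes reached. Against WT (0.216% called) Suv39h2, a histone H3K9 methyltransferase, was higher in KO with a log2 fold change of 1.01 (SE 0.19, adjusted p = 0.0174), and against HT its estimate was 0.92 (adjusted p = 0.0529). It lay at 140.3, 168 and 198 CPM in WT, 174, 199 and 165 CPM in HT and 331.5, 323 and 362 CPM in KO libraries, all KO values above both controls.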

How the data were processed

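RNA was measured by sequencing in 21 libraries, 3 in each of 7 groups taken from the sample titles. The authors deposited unnormalized read counts per gene and per repeat name, 1 table per age; per the submitters' processing notes STAR, featureCounts, edgeR, Bowtie and the genome build mm9 were used, with no version, role or handling of reads that map to several places given in the sources used here. The 90 RLTR names were found by name among 1217 repeat names, beside 24495 genes. The members and gene lists were chosen with earlier results of these data known.

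Repeat names that reached 10 reads in 3 or more libraries of a fit were tested with edgeR 4.0.16 (R 4.3.3; quasi-likelihood test, two-sided, Benjamini-Hochberg adjustment over all names, threshold 0.05), with library sizes and TMM factors from the genes. Each age was fitted alone, and contrasts across ages in 1 fit of 18 libraries. SE is the absolute log2 fold change over the square root of F. Genes were tested likewise after filterByExpr. "Own spread" is limma-voom without sharing of variances. Values are given for up to 8 names per direction with the largest change among those that passed without overlap in each KO comparison, or the 5 lowest p-values where under 3 passed, up to 5 names per direction in age contrasts, the most heavily read names and the compared numbers; RLTR13D6, RLTR13C2, RLTR9E, RLTR20B3, RLTR26 and names just outside the threshold were in part picked with their values in view.

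Alternatives were repeat totals as library sizes, RLE factors, TMM over genes and repeats, no filter, at least 50 reads, DESeq2 1.42.0, limma-voom (limma 3.58.1), genes and names in 1 table, a replicate block and leaving out each library; TMM over repeat names and own spread were chosen after seeing the data. Same-numbered HT and KO libraries deviated together weakly at E18.5 (correlations 0.22, 0.19 and 0.15 over names). Over genes the values were 0.25, 0.16 and 0.10, and HT replicate 3 correlated more with KO replicate 2 (0.13) than with its own number. The sample titles give only the number, so this pairing was read from the same data and is not known from the design. Blocked values at E18.5 stand beside the unblocked ones, from which the calls come. At E16.5 (0.59, 0.06 and 0.72) and D2.5 the numbers were not taken as pairs. The test was tested on simulated data, drawn name by name with the spread fitted for names of like level. Of names changed 2-fold it recovered 90% at E16.5 (1090 names), 98% at E18.5 (1125) and 70% at D2.5 (1110). False calls were 13 of 203, 7 of 205 and 7 of 171. Neither a name's own spread nor shared deviations of libraries were simulated. The recovered shares thus do not cover names that spread more widely, such as RLTR45-int at E16.5 (SE 0.34). No pair of libraries of a group agreed within sampling noise over the RLTR names. Figures were drawn with matplotlib 3.10.9.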

Additional observations from a re-analysis of the deposited data

Results flagged for a closer look

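For RLTR13C2 the KO difference itself differed between ages: its log2 fold change against HT was 0.63 at E18.5 and -0.22 at D2.5, and the change between the ages was -0.85 (SE 0.23, edgeR adjusted p = 0.0447). Over the alternatives its adjusted p ran from 0.000673 to 0.233. Against WT the log2 fold change at D2.5 was -0.04.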

How the results depend on the processing

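The count of RLTR names called in KO against HT at E18.5 (25) was 13 with repeat totals, 28 with TMM over repeat names, 43 with the replicate block, 8 with own spread and 8 to 49 without 1 library. In the same settings 6.76%, 10.7%, 18.2%, 4.53% and 5.46% to 24.1% of all names were called higher. At E16.5 (0) the replicate block gave 4. At D2.5 (1 against HT and 1 against WT) repeat totals and TMM over repeat names gave 4 in each comparison, and own spread 0. For the KO effect at D2.5 minus E18.5 (1), repeat totals, RLE factors, genes and names in 1 table and TMM over repeat names gave 0; no filter, at least 50 reads, DESeq2 and limma-voom gave 2; the replicate block gave 44, and fits without 1 library 0 to 8. For HT at E18.5 against E16.5 (9), repeat totals gave 4, RLE factors 23, DESeq2 38 and the replicate block 25; TMM over genes and repeats, genes and names in 1 table, TMM over repeat names and own spread gave 0, and fits without 1 library 0 to 15. HT at D2.5 against E18.5 gave 69, 59 to 70 under the alternatives and 67 to 77 without 1 library. HT against WT and the KO effect at E18.5 minus E16.5 gave 0 in all of them. Where no share of all names is given for a setting, its count cannot be told apart from a shift of all repeat names. At every age, E18.5 included, the sample titles of HT and KO libraries share only a replicate number. Pairs are thus a hint from the data and not the design. At E16.5 each HT library correlated best with its own number, but KO replicate 2 with HT replicate 1 (0.45 against 0.06). No name chosen for the size of its change or its p changed sign under any of these settings. At E18.5 RLTR15, not called, went from 0.18 to -0.10 with repeat totals, and of the 69 names called for HT at D2.5 against E18.5, 29 changed sign with repeat totals and 11 of them were then called the other way. At D2.5 a 2-fold change was recovered in 70% of simulated names, so smaller changes than that of RLTR1B-int could be missed.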
